A study of Mus musculus with 4 samples.

Results

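The genes described here handle iron in the cell: the ferritin subunits Fth1 and Ftl1, the ferritin cargo receptor Ncoa4, the transferrin receptor Tfrc, the divalent metal transporters Slc11a1 and Slc11a2, the iron exporter Slc40a1 (ferroportin), and Aco1 and Ireb2, which encode the iron regulatory proteins IRP1 and IRP2. They were chosen by symbol because EGCG, the main catechin of green tea, binds iron. All 9 symbols were found among the 53465 genes of the count table, and all 9 had enough counts to be tested. The cells were Gr-1+ myeloid-derived suppressor cells (MDSCs), bead-sorted from the spleens of male BALB/c mice that carried 4T1 mammary tumors, injected when the mice were 6 weeks old. Both groups came from tumor-bearing mice and were cultured for 6 h, the control group (2 libraries) in control medium and the EGCG treatment group (2 libraries) with 5 μg/mL EGCG. The labels place the sacrifice on day 21, and the study's methods give an earlier day for the sort. The labels do not say whether separate mice gave the 2 libraries of a group, so the p-values measure only the spread between these libraries.

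Iron that is not in use is stored inside ferritin, a hollow shell of heavy (Fth1) and light (Ftl1) chains, and Ncoa4 delivers ferritin to the lysosome when iron has to be released. Cells take up iron mainly through transferrin bound to Tfrc, move it out of endosomes and phagosomes through Slc11a2 and Slc11a1, and export it through Slc40a1. When iron is scarce, IRP1 and IRP2 bind a hairpin called the iron-responsive element. In the 5′ untranslated region it blocks translation of the storage and export mRNAs, and in the 3′ untranslated region it protects the Tfrc mRNA from decay. Macrophages of the splenic red pulp recycle iron from aged red blood cells, and developing red blood cells take up most of the iron in the body.

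The elements found are shown because their place in the mRNA bears on how a gene is read here, since a block of translation is not seen directly in RNA counts and a change in mRNA stability is. In the GENCODE M21 transcripts (GRCm38, the C57BL/6J reference and not BALB/c sequence), an unpaired C, a stem of 5 base pairs (G-U pairs allowed) and the loop CAGTGN were searched on the sense strand. Of the 9 genes, 4 held 7 such elements, which are printed 5′ to 3′ over 30 bases with the loop in capitals. For the other 5 no match says only that these letters were not found in the annotated untranslated regions. The 5′ regions of Fth1, Ftl1 and Slc40a1 held 1 element each. It was in 4 of 5 annotated protein-coding transcripts of Fth1, 1 of 2 of Ftl1 and 1 of 4 of Slc40a1.
Fth1, chr19:9982732-9982761, plus strand: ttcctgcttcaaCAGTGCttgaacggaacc
Ftl1, chr7:45459778-45459807, minus strand: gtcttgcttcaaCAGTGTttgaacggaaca
Slc40a1, chr1:45925464-45925493, minus strand: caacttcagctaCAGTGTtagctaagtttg
The 3′ region of Tfrc held the 4 others, all on the plus strand of chromosome 16 and in 1 of its 3 protein-coding transcripts.
Tfrc, chr16:32631219-32631248: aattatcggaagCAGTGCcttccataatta
Tfrc, chr16:32631598-32631627: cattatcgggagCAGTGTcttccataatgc
Tfrc, chr16:32631663-32631692: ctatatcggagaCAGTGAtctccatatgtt
Tfrc, chr16:32631710-32631739: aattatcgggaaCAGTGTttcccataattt

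The elements of Fth1 and Ftl1 are identical at 26 of the 30 positions. Counts per gene do not separate transcripts with an element from those without. Across the annotation, 0.148% of 20916 genes with a 5′ untranslated region and 0.594% of 21707 genes with a 3′ untranslated region held a match. Matches in the other iron genes examined are not reported here.

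The libraries held between 17767318 and 18390385 counted reads, and those of a group differed by more than counting noise (a chi-square of 6.25 per gene between the control libraries and 6.07 between the EGCG libraries). Markers of granulocytic MDSCs, led by S100a9, had a summed level of 55669 and 67188 CPM (the count of a gene scaled to a common library size, after TMM normalization) in control medium and of 76015 and 66797 CPM under EGCG, and all 11 were detected, as were all 8 monocyte markers. Markers of B cells (364 to 414 CPM in sum) and of T or NK cells (90.7 to 108 CPM) were present at lower levels. The selection for Gr-1 is meant to leave out erythroid, endothelial, lymphoid and red pulp macrophage cells, and markers of each were still counted. In bulk RNA, fewer cells of a type cannot be told apart from less RNA per cell.

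The groups were compared with the quasi-likelihood test of edgeR, with Benjamini-Hochberg adjustment across the 14682 tested genes. None of the 9 iron genes passed at an adjusted p under 0.05, against 0.150% of all tested genes. DESeq2 also called 0 of them, but it gave no adjusted p for Slc11a2. Differences between the groups were small, from a log2 fold change of -0.22 (Aco1) to 0.21 (Ftl1), with 4 genes higher and 5 lower with EGCG. At an unadjusted p under 0.05 there were 2 (Ftl1 and Slc40a1, both higher), a share of 22.2% against 12.2% of all tested genes in either direction and 5.22% in the higher direction. That count was 1 with the length correction (Slc40a1), where 1469 of all tested genes were under 0.05, against 1797 in the test reported. It was 3 with library size only (Ncoa4 added), where 1878 of all tested genes were. The count also moved with a library left out, where the log2 fold change ran from 0.15 to 0.27 for Ftl1 and from 0.13 to 0.28 for Slc40a1. Values of both groups were fully apart, without overlap, for 3 of the 9 genes, against 42.7% of all tested genes. The plot of CPM by library shows the 9 genes side by side.

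**Figure D1:**
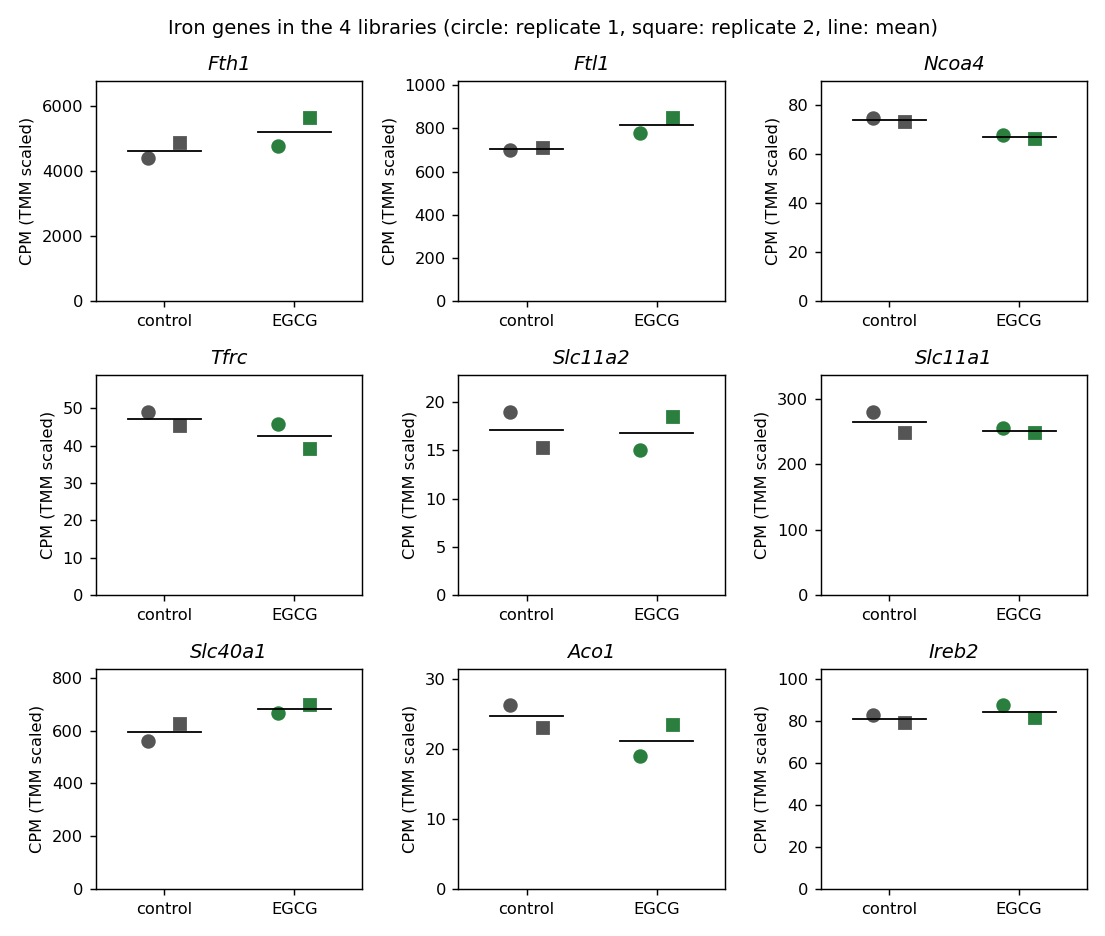
Level of each iron gene in CPM (linear axis from 0) in the 2 control and 2 EGCG libraries, with circles for replicate 1, squares for replicate 2 and a line at the group mean. The groups are apart for Ftl1, Slc40a1 and Ncoa4 and overlap for the other 6 genes.

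Ferritin transcripts were the most abundant of the set. Fth1 (ENSMUSG00000024661, GRCm38 chromosome 19 from 9980598 to 9985098) encodes the heavy chain, which oxidizes ferrous iron for storage. It stood at 4409.5 and 4858 CPM in control medium and at 4778 and 5649 CPM under EGCG. EGCG replicate 2 was the highest of the 4, whereas EGCG replicate 1 lay below control replicate 2, so the groups overlapped. For Fth1 the fit gave a log2 fold change of 0.17 (standard error 0.10, 95% interval -0.04 to 0.38), and edgeR's quasi-likelihood test gave an adjusted p of 0.523. It was 0.045 without EGCG replicate 2 and 0.29 without EGCG replicate 1, so that most of the difference lay in 1 library.

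Ftl1 (ENSMUSG00000050708, chromosome 7 from 45457944 to 45459884) encodes the light chain, which favors the growth of the iron core. Its level was 700.3 and 709 CPM in control medium and 779.8 and 849 CPM under EGCG. Both EGCG libraries were above both control libraries, which were close to each other. This gave a log2 fold change of 0.21 (standard error 0.08, 95% interval 0.04 to 0.38), which is 1.16-fold, and edgeR's quasi-likelihood test gave an unadjusted p of 0.0178 and an adjusted p of 0.307. With the length correction, a per-library fit of counts to exonic length, it was 0.13 (unadjusted p of 0.0995).

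The counts of Ftl1 are uncertain because of a near-identical copy. Of the 31-base words in its transcripts, 64.2% also occurred in transcripts of other genes, and 54.4% in those of Ftl1-ps1 alone (ENSMUSG00000062382, chromosome 13 from 74399694 to 74407346), which bears the name of a pseudogene but is listed as protein-coding. The iron-responsive element of Ftl1 recurs in Ftl1-ps1 with all 30 bases identical. More reads were counted on Ftl1-ps1 (19691 and 19638 in control medium, 20601 and 23359 under EGCG) than on Ftl1 (12788 and 12671, then 14139 and 15160). Ftl1 took between 39.2% and 40.7% of the joint count in each library, so the split hardly differed between groups. Ftl1-ps1 had a log2 fold change of 0.17 (standard error 0.08, adjusted p of 0.459 by edgeR's quasi-likelihood test). For Ftl1-ps1 it was 0.063 without EGCG replicate 2 and 0.27 without EGCG replicate 1. With both counts summed, an alternative added after the data were seen, the log2 fold change of Ftl1 was 0.18 (standard error 0.08, adjusted p of 0.403). Other ferritin pseudogenes had few counts. By edgeR's quasi-likelihood test, Ftl2-ps (63 to 94 counts) had 0.48 (unadjusted p of 0.0313, adjusted p of 0.363). Fth-ps2 (27 to 45 counts) had -0.48 (adjusted p of 0.560) and Ftl1-ps2 (47 to 57 counts) had 0.14 (adjusted p of 0.864). Fth-ps3 had at most 8 counts in a library, and Gm10252, which overlaps Ftl1 on the other strand, had at most 7.
The balance of light to heavy chain transcripts depended on whether Ftl1-ps1 was counted and on the length used. Per length of 1 chosen coding transcript with the element for each gene (929 bases for Fth1, the first of its 4 such transcripts by name, 968 for Ftl1 and 938 for Ftl1-ps1), Ftl1 stood at 15.2% and 14.0% of Fth1 in control medium and 15.7% and 14.4% under EGCG. With Ftl1-ps1 added, the ratio was 39.5% and 36.4% in control medium and 39.2% and 37.3% under EGCG. Per exonic length, as in the TPM values below, Ftl1 alone stood at 41.1% and 37.8% of Fth1 in control medium and 42.3% and 38.9% under EGCG. In each form the ratios of the control and EGCG libraries overlapped. Fth1 and Ftl1 together took 0.525% and 0.554% of all counts in control medium and 0.548% and 0.642% under EGCG.

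Ncoa4 (ENSMUSG00000056234, chromosome 14 from 32159865 to 32179855), the receptor that carries ferritin into autophagosomes, had 74.7 and 73.1 CPM in control medium and 67.8 and 66.1 CPM under EGCG. Both EGCG libraries were lower, and replicates lay close together. Ncoa4 had a log2 fold change of -0.14 (standard error 0.08, 95% interval -0.31 to 0.025, adjusted p of 0.500 by edgeR's quasi-likelihood test). With a library left out it stayed between -0.16 and -0.12, the narrowest such range of the 9 genes, and the length correction brought it to -0.059. Over its 13 annotated transcripts, Ncoa4 shares 18.7% of its words with Gm6768, and the part of Gm6768 that these cover was not measured. On Gm6768, 1952 and 2051 reads were counted in control medium and 1664 and 1700 under EGCG, more than on Ncoa4 itself (1180 to 1364). Gm6768 had a log2 fold change of -0.25 (standard error 0.08, unadjusted p of 0.00638, adjusted p of 0.228). With both counts summed, the value for Ncoa4 was -0.20 (standard error 0.07, unadjusted p of 0.0139, adjusted p of 0.283).

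**Figure D2:**
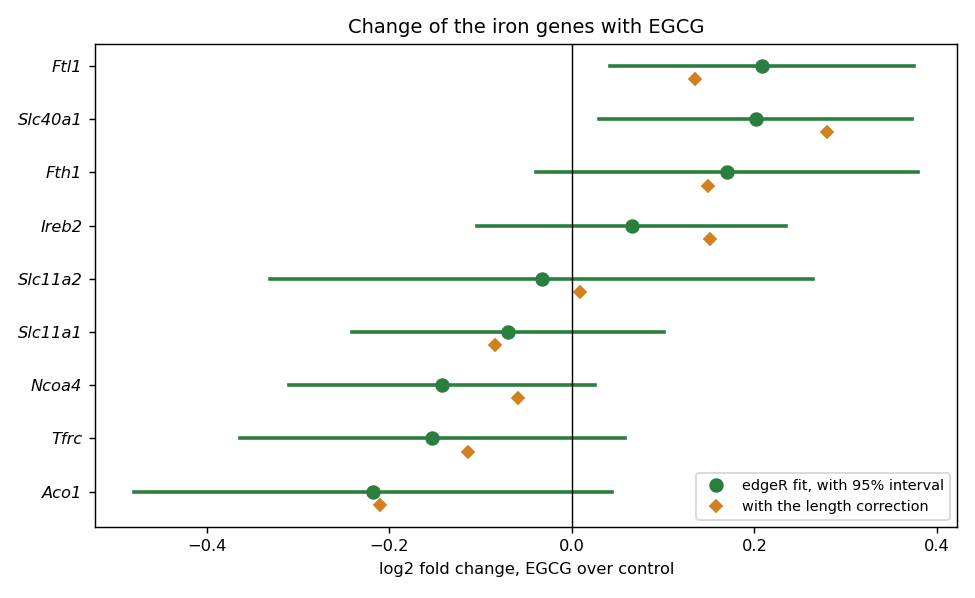
Log2 fold change (EGCG over control) of each iron gene from edgeR's fit with its 95% interval (green), and the value with the length correction (orange diamonds). The intervals of Ftl1 and Slc40a1 lie above 0, and the correction moved Ftl1 to 0.13, Slc40a1 to 0.28 and Ncoa4 to -0.059.

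Among the uptake genes, Tfrc (ENSMUSG00000022797, chromosome 16 from 32608920 to 32632794) encodes the receptor for iron-loaded transferrin and its mRNA is stabilized by IRPs. It stood at 49.1 and 45.3 CPM in control medium and at 45.8 and 39.1 CPM under EGCG. The groups overlapped, since EGCG replicate 1 lay between the control libraries, and EGCG replicate 2 was the lowest. Tfrc had a log2 fold change of -0.15 (standard error 0.10, 95% interval -0.36 to 0.058), with an adjusted p of 0.574 by edgeR's quasi-likelihood test. It was -0.042 without EGCG replicate 2 and -0.27 without EGCG replicate 1.
Erythroid cells express much Tfrc. The summed level of the 11 erythroid markers was 166 and 210 CPM in control medium (209.6 in the second) and 192 and 216 CPM under EGCG, with 5 of the 9 tested markers higher and 4 lower, and no marker was at 0 in every library. Their part in the level of Tfrc was not tested.

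Slc11a2 (ENSMUSG00000023030, chromosome 15 from 100387898 to 100425072) encodes DMT1, which moves ferrous iron out of endosomes, and was the least abundant of the set. It had 19.0 and 15.3 CPM in control medium and 15.1 and 18.5 CPM under EGCG. The replicates of each group differed more than the group means, and the log2 fold change was -0.033 (standard error 0.14, 95% interval -0.33 to 0.26, adjusted p of 0.953). Its direction turned with the length correction (0.0093), without control replicate 1 (0.14) and without EGCG replicate 1 (0.11). Counts from 273 to 347 per library were summed over 8 annotated transcripts, so that isoforms with different 3′ ends cannot be told apart. The search above found no match in this gene. It allowed only a stem of 5 unbroken base pairs, so an element with an interrupted stem would be missed. The gene overlaps Gm5475 on the other strand, which had at most 2 counts in a library.

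Slc11a1 (ENSMUSG00000026177, chromosome 1 from 74375195 to 74386062) encodes NRAMP1, the metal transporter of the phagosome in macrophages and neutrophils. BALB/c mice carry its susceptible, loss-of-function allele. It stood at 280.5 and 247 CPM in control medium and at 255 and 248 CPM under EGCG. Control replicate 1 was apart from the 3 other libraries, which were close to each other. The log2 fold change was -0.070 (standard error 0.08, 95% interval -0.24 to 0.10, adjusted p of 0.779), and 0.028 without control replicate 1. Monocyte markers were also highest in that library (1642 CPM in sum, against 1388 in control replicate 2 and 1227 and 1298 in the EGCG libraries, with 7 of 8 lower with EGCG), and their part was not tested.

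Slc40a1 (ENSMUSG00000025993, chromosome 1 from 45908068 to 45926523) encodes ferroportin, the only known exporter of cellular iron in mammals. Its level was 562 and 625 CPM in control medium and 668 and 696 CPM under EGCG. Both EGCG libraries were above both control libraries. The log2 fold change was 0.20 (standard error 0.08, 95% interval 0.030 to 0.37), which is 1.15-fold, and edgeR's quasi-likelihood test gave an unadjusted p of 0.0244 and an adjusted p of 0.339. The length correction moved it to 0.28 (standard error 0.08, unadjusted p of 0.00324, adjusted p of 0.238). Over 12 alternatives the log2 fold change ran from 0.17 to 0.28 with adjusted p values from 0.144 to 0.708, and leaving out single libraries gave 0.13 (without control replicate 1) to 0.28 (without control replicate 2).
Ferroportin is most abundant in the iron-recycling macrophages of the red pulp. Markers of these macrophages had values in the other direction, with 9 of 10 lower with EGCG, 5 at an unadjusted p under 0.05 (12.2% of all tested genes) and 0 at an adjusted p under 0.05 by edgeR's quasi-likelihood test. Their summed level was 454 and 439 CPM in control medium and 340 and 378 CPM under EGCG, and none was at 0 in every library. Their part in the level of Slc40a1 was not tested. For Spic, the transcription factor that defines red pulp macrophages, the counts were 330 and 274 in control medium and 204 and 283 under EGCG.

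The iron regulatory proteins bind the elements shown above. Aco1 (ENSMUSG00000028405, chromosome 4 from 40143081 to 40198338) encodes IRP1, which is cytosolic aconitase when it holds an iron-sulfur cluster. It had 26.2 and 23.0 CPM in control medium and 18.9 and 23.4 CPM under EGCG. EGCG replicate 1 was the lowest and EGCG replicate 2 lay between the control libraries. The log2 fold change of -0.22 (standard error 0.12, 95% interval -0.48 to 0.045, adjusted p of 0.514) was the lowest of the set, and it was -0.069 without EGCG replicate 1 and -0.38 without EGCG replicate 2.
Ireb2 (ENSMUSG00000032293, chromosome 9 from 54863789 to 54912530) encodes IRP2, which is degraded when iron is plentiful. It stood at 82.5 and 78.7 CPM in control medium and at 87.3 and 81.3 CPM under EGCG. The groups overlapped, and the log2 fold change was 0.066 (standard error 0.08, 95% interval -0.10 to 0.24, adjusted p of 0.794). The length correction moved it to 0.15 (unadjusted p of 0.0703), and it was 0.016 without EGCG replicate 1.

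**Figure D3:**
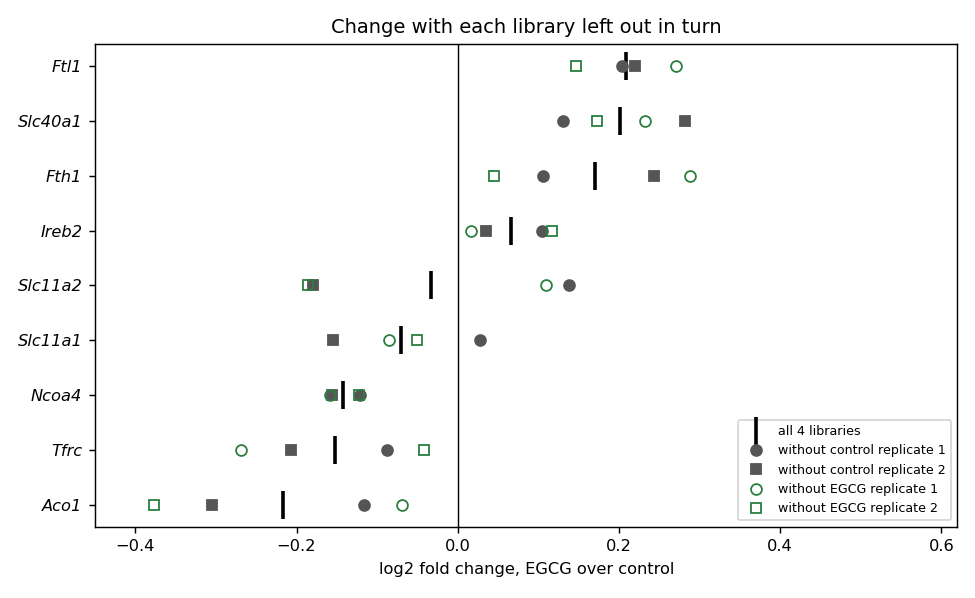
Log2 fold change (EGCG over control) of each iron gene with all 4 libraries (black bars) and with 1 library left out (filled symbols for control, open symbols for EGCG libraries; circles for replicate 1, squares for replicate 2). Values for Slc11a2 and Slc11a1 cross 0, and those of Ncoa4 stay between -0.16 and -0.12.

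Levels between genes were compared per kilobase of exonic length, as TPM (transcripts scaled to a common total). Fth1 was highest, from 3065 to 3771 TPM over the 4 libraries and at rank 18 of 14666 tested genes with a length, followed by Ftl1 with 1250.1 to 1467 TPM (rank 80). These levels are low estimates where an annotation includes retained introns, as for Fth1, whose exons cover 3469 bases. Slc40a1 (161 to 179 TPM) and Slc11a1 (153 to 196 TPM) overlapped each other below the ferritin genes. Ireb2 (19.6 to 22.5 TPM), Ncoa4 (16.1 to 20.6 TPM) and Tfrc (14.7 to 20.5 TPM) overlapped as well. The range of Aco1 (9.36 to 15.1 TPM) reached that of Tfrc, and Slc11a2 was below all others (5.27 to 7.73 TPM).
The exporter gene was thus measured above the uptake receptor gene in each library. The ratio of Slc40a1 to Tfrc in TPM was 7.86 and 9.48 in control medium and 10.0 and 12.2 under EGCG. The ratio of Tfrc to Fth1 was 0.625% and 0.523% in control medium and 0.538% and 0.389% under EGCG, so that the groups overlapped in the second ratio and not in the first. No test was made of these ratios. That of Slc40a1 to Tfrc was not among the planned ratios, and Slc40a1 alone already had its groups apart. Groups were apart for 42.7% of all tested genes taken singly.

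**Figure D4:**
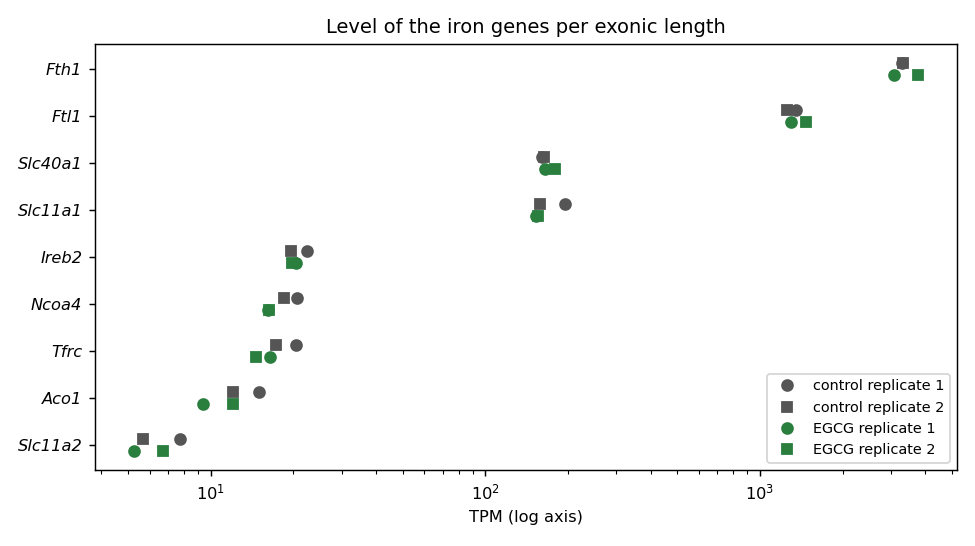
Level of each iron gene in TPM (log axis) in the 4 libraries, with grey symbols for control and green for EGCG, circles for replicate 1 and squares for replicate 2. The genes span from 5.27 TPM (Slc11a2) to 3771 TPM (Fth1), and the libraries of a gene lie close together on this scale.

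The genes whose pattern over the 4 libraries was nearest were found by the Euclidean distance of centered log2 CPM among 8209 genes with a mean of at least 10 CPM. With only 4 libraries, such likeness describes these libraries and no more. For Fth1 they were Mreg, Fcrla and Trmt112-ps2 (distances of 0.014 to 0.025), for Tfrc they were Slc9a8, Ccnl2 and Ptpn7 (0.022 to 0.032), and for Slc40a1 they were Ugp2, Eef1b2 and Rap1b (0.0070 to 0.011).

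Other genes of iron metabolism were taken from 5 lists, with 112 genes in all besides the 9 described, of which 96 were tested. Of these, 49 were higher and 47 lower with EGCG, with a median log2 fold change of 0.011 beside 0.0031 for all tested genes. The median of the 96 turned to -0.0082 with the length correction, -0.024 with library size only and -0.0022 without EGCG replicate 2, and was also below 0 without control replicate 1. By edgeR's quasi-likelihood test 1 of them passed at an adjusted p under 0.05 (against 0.150% of all tested genes), and 9 had an unadjusted p under 0.05, which is 9.38% against 12.2%. Groups were apart for 46.9% of the 96 genes, against 42.7%.
The gene that passed was Lrp1, in the list of uptake, release and reduction, which encodes an endocytic receptor that takes up heme bound to hemopexin among many other ligands. It fell from 326 and 224 CPM in the control libraries to 153 and 175 CPM in the EGCG libraries. Lrp1 had a log2 fold change of -0.75 (standard error 0.13, adjusted p of 0.0427), and its adjusted p over 12 alternatives ran from 0.00234 to 0.593 (0.0731 with the length correction and 0.241 by DESeq2). With a library left out the log2 fold change of Lrp1 ran from -0.99 to -0.44. Most of the red pulp macrophage markers (9 of 10) and monocyte markers (7 of 8) given above were lower as well. Endothelial markers were lower for 5 of 5 genes, with a summed level of 126 and 138 CPM in control medium and 102 and 108 CPM under EGCG, and the part of these cell types was not tested.
In that list 11 of 16 tested genes were lower with EGCG (median log2 fold change of -0.13, which was -0.32 without EGCG replicate 1, -0.042 without EGCG replicate 2 and -0.074 with a filter of 1 CPM). Among them was Hfe, the hemochromatosis protein that binds Tfrc, at -0.27 (unadjusted p of 0.0278, adjusted p of 0.349). At an unadjusted p under 0.05 by edgeR's quasi-likelihood test there were 2, both lower, which is 12.5% against 12.2% of all tested genes. Groups were apart for 62.5% of the tested genes of this list, against 42.7% of all. Of all 14682 tested genes, 7254 were lower. The lowest value of the list came from a gene with 6 to 13 counts per library. Neither hepcidin gene could be tested, with at most 6 counts for Hamp and 3 for Hamp2 in a library.
For heme, 8 of 19 tested genes were higher and 11 lower (median of -0.026, which turned to 0.055 without EGCG replicate 1 and lay at -0.066 when control replicate 2, and at -0.052 when EGCG replicate 2, was left out), and 1 had an unadjusted p under 0.05, which is 5.26% against 12.2% of all tested genes. This was Hmox1, the inducible enzyme of heme breakdown that releases iron, at 346 and 334 CPM in control medium and 264 and 327 CPM under EGCG. EGCG replicate 1 was the lowest, and the log2 fold change of -0.20 (adjusted p of 0.405) was -0.052 without that library and -0.36 (adjusted p of 0.0359) without EGCG replicate 2. Of the 29 tested genes of mitochondrial iron and iron-sulfur assembly, 15 were higher and 14 lower (median of 0.018, which turned to -0.0081 with the length correction and -0.018 with library size only, and was 0.032 without control replicate 1), and 0 had an unadjusted p under 0.05, against 12.2% of all tested genes.

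Of 18 tested genes for iron sensing, iron chaperones and ferritin turnover, 14 were higher and 4 lower with EGCG (median of 0.064, which was 0.056 with the length correction, 0.029 with library size only, and 0.13 or 0.11 when control replicate 2 or EGCG replicate 1 was left out). At an unadjusted p under 0.05 by edgeR's quasi-likelihood test, 2 were higher and 2 lower, which is 22.2% against 12.2% of all tested genes. The iron chaperone gene Pcbp2, which delivers iron to ferritin, was at 145 and 154 CPM in control medium and 165 and 185 CPM under EGCG (log2 fold change of 0.23, unadjusted p of 0.0124, adjusted p of 0.274). For Pcbp2 it was 0.15 without EGCG replicate 2 and 0.31 without EGCG replicate 1. Glrx3, a cytosolic glutaredoxin of iron-sulfur trafficking, had 0.28 (adjusted p of 0.370). Herc2, a ubiquitin ligase linked to Ncoa4 turnover, had 100.2 and 103 CPM in control medium and 75.4 and 80.7 CPM under EGCG, with a log2 fold change of -0.38 (adjusted p of 0.0717, and 0.0279 by DESeq2) that the length correction moved to -0.23 (adjusted p of 0.357). Epas1, which encodes HIF-2α, had -0.60 (adjusted p of 0.321) with 47 to 78 counts per library. Fbxl5, the iron-sensing subunit of the ligase that degrades IRP2, had 0.019 (adjusted p of 0.950 by edgeR's quasi-likelihood test, as for the other genes of this list). For Fbxl5 it was 0.11 with the length correction, 0.083 without control replicate 2 and -0.035 without control replicate 1.
Hydroxylases of the hypoxia-inducible factor need iron, and genes known to rise when they are blocked were listed as another readout. Of 15 tested, 8 were higher and 7 lower with EGCG (median of 0.049, which was 0.025 with the length correction, -0.018 with the replicate block and the length correction, 0.014 with library size only, 0.0057 without control replicate 2 and 0.089 with a filter of 1 CPM), and 0 passed at an adjusted p under 0.05 by edgeR's quasi-likelihood test or by DESeq2. At an unadjusted p under 0.05 there were 2, or 13.3% against 12.2% of all tested genes, namely Mxi1, a Myc antagonist (log2 fold change of 0.23, adjusted p of 0.246), and Bnip3, a mitophagy receptor (0.27, adjusted p of 0.376).

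**Figure D5:**
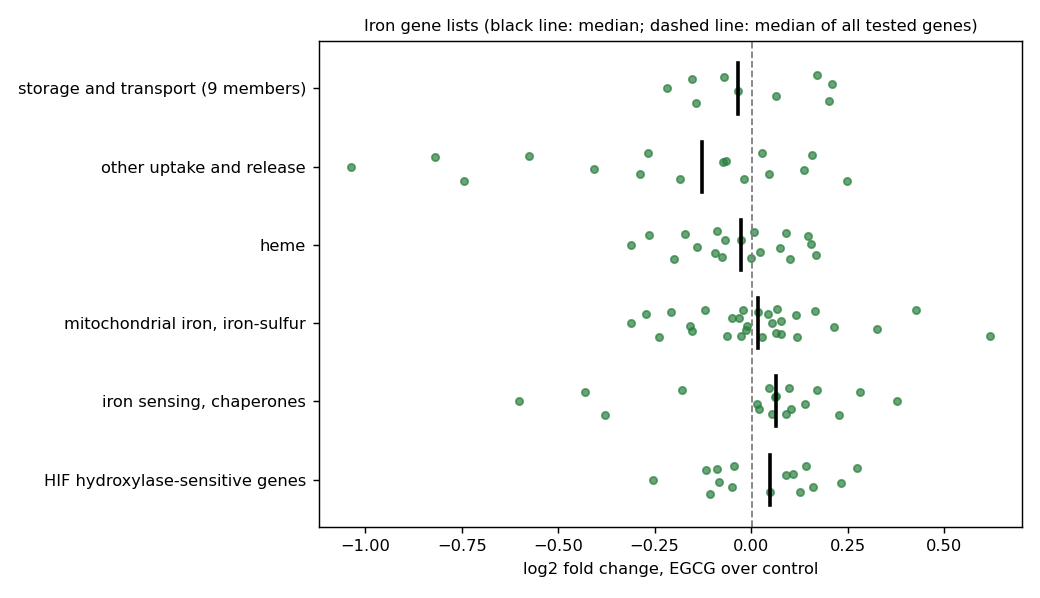
Log2 fold change (EGCG over control) of each tested gene in the 9-gene set and in the 5 other iron lists, with a black line at the median of each list and a dashed line at the median of all tested genes (0.0031). List medians lie between -0.13 and 0.064, and the lowest values belong to the list of other uptake and release genes. The lowest of all came from a gene with 6 to 13 counts per library.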

How the data were processed

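RNA was sequenced from 4 MDSC libraries, 2 per group. The authors deposited raw counts per gene, made without regard to strand. Per the labels and the study's methods they used bcl2fastq 1.8.4, FastQC, STAR 2.6.0c with default settings on GRCm38, and featureCounts 1.6.2. The handling of reads that match several genes is not given in the sources used here, and it bears on Ftl1 and Ncoa4, which have near-identical copies. Counts were tested with edgeR 4.0.16 (quasi-likelihood, TMM scaling, at least 10 counts by filterByExpr) in R 4.3.3, on the 4 libraries with no covariate, and p-values were adjusted over 14682 genes. Scripts were tested on simulated data. Alternatives were other filters and scalings, other forms of the edgeR test, DESeq2 1.42.0 and a loess correction for exonic length (loess of base R). Others were the replicate number as a block, each library left out, and the counts of genes with shared sequence summed. The length correction was tried because fold change and exonic length were related (Spearman's rho of -0.286 over 14666 genes, and genes are no independent replicates). Lengths, positions and untranslated regions came from GENCODE M21. Tables were handled in Python 3.11.15 with pandas 2.3.3 and NumPy 2.4.6, and plotted with matplotlib 3.10.9.

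The 9 genes and the lists were chosen with earlier results of these data known. Named were all 9, every other iron gene that passed the test, and from each list the genes with the smallest unadjusted p whose groups did not overlap (up to 3 in each direction), of which the text gives those under 0.05. The rule also named ferritin pseudogenes by symbol, genes that overlap one of the 9, and the 3 genes nearest in pattern to Fth1, Tfrc and Slc40a1. No value is given for Gm22133, a microRNA gene that overlaps Ftl1. S100a9, Spic, Hamp, Hamp2, Fbxl5, Lcn2, Ltf and Gm6768 were named outside or beyond that rule for their function or shared sequence, after their values were seen.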

Additional observations from a re-analysis of the deposited data

How the results depend on the processing

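None of the 9 iron genes passed at an adjusted p under 0.05 by edgeR's quasi-likelihood test or by DESeq2 under any of the 16 alternatives, and 7 of the 9 kept their direction in all of them. Slc11a1 had a log2 fold change of 0.028 without control replicate 1 (range -0.15 to 0.028 with a library left out). Slc11a2, for which DESeq2 gave no adjusted p, had 0.0093 with the length correction and 0.0092 with the replicate block and the length correction. Its value lay between -0.19 and 0.14 with a library left out. Over all genes, those called higher numbered 2 in the test reported, 0 with no filter, 1 with the filter of 1 CPM, 16 with library size only, 6 with the newer form of edgeR, 14 with robust estimation, 14 with DESeq2, 6 with the replicate block and 5 to 119 with a library left out (119 without control replicate 2). Those called lower numbered 20, against 0 with no filter (1795 genes had an unadjusted p under 0.05 there), 135 with library size only, 9 with upper-quartile scaling, 49 with robust estimation, 54 with DESeq2, 6 with the length correction, 5 with the replicate block and the length correction, and 72 to 235 with a library left out (235 without control replicate 2). Of the other iron genes 1 was called, against 0 with no filter, 2 with library size only, 0 with upper-quartile scaling, 0 with the length correction, 0 with the replicate block and the length correction, and 1 to 3 with a library left out (3 without EGCG replicate 2). The cause was not tested. Same-numbered libraries did not deviate together (correlation of -0.029 across 8210 genes). This shows no pairing by number, but with 2 libraries per group it cannot exclude one, and the labels do not say. With a library left out, the lone library of a group is assumed to vary like the other group. The median log2 fold change of all genes ran from -0.032 (library size only) to 0.011.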

Other observations

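Neutrophils carry iron-binding proteins in their granules, and their genes were far above most genes of iron transport. Ltf, which encodes lactoferrin, had 3875 and 3841.5 CPM in control medium and 3716 and 3626.5 CPM under EGCG, which is a log2 difference of -0.072 (standard error 0.08, 95% interval -0.25 to 0.10). Lcn2, which encodes the siderophore-binding lipocalin, had 2093 and 2355 CPM in control medium and 2327 and 2066 CPM under EGCG, which is a log2 difference of -0.018 (standard error 0.09, 95% interval -0.21 to 0.18). Both were picked after their values were seen, and the adjusted p from edgeR's quasi-likelihood test was 0.776 for Ltf and 0.963 for Lcn2.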
